A study of Mus musculus with 8 samples.

Results

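The genes described here encode the enzymes that make serine from a glycolytic intermediate and the enzymes and carrier that pass its carbon to folate, mainly inside mitochondria. They were taken by their place in the pathway with no threshold on their values, but with earlier results of these data known, and were Phgdh, Psat1, Psph, Shmt1, Shmt2, Mthfd1, Mthfd1l, Mthfd2, Aldh1l2 and Slc25a32. All 10 were among the 13227 genes of the deposited counts and all 10 passed the filter on low counts, which left 13226 genes for testing. Phgdh and Mthfd1l reached the lowest level kept in the deposited counts only through the transgenic hearts, as set out with the processing. The series measured RNA in hearts of FVB/N mice, an inbred strain, at 3 months of age. All were labelled male, a label that the Y-linked counts of non-transgenic heart D, given below, do not bear out. Hearts A, B, D and E were non-transgenic. The other 4 hearts (A, B, C and E) carried a FASTKD1 transgene that the series title calls cardiac-specific; its promoter and the number of founder lines are not given in the sources used here. No drug or other treatment is named for either group. FASTKD1 is a mitochondrial protein that acts on mitochondrial RNA.

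Serine synthesis starts from 3-phosphoglycerate, an intermediate of glycolysis. PHGDH oxidises it, PSAT1 adds an amino group, and PSPH removes the phosphate to leave serine. The SHMT enzymes move a carbon from serine to tetrahydrofolate and leave glycine; SHMT1 acts in the cytosol and SHMT2 in mitochondria. In mitochondria the folate-bound carbon is then oxidised by MTHFD2 and released as formate by MTHFD1L, or oxidised to carbon dioxide by ALDH1L2 with production of NADPH. MTHFD1 handles the same folate forms in the cytosol, and SLC25A32 carries folate across the inner mitochondrial membrane. In heart and skeletal muscle, several of these genes are known to rise when mitochondrial function is disturbed, as targets of ATF4, the transcription factor of the integrated stress response.

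Of the 10 genes, 4 rose in transgenic hearts: Mthfd2, Phgdh, Aldh1l2 and Psat1 (edgeR adjusted p under 0.05). That is 40% of the genes, where 1.01% of all tested genes rose; since the pathway was picked with such results in view, the higher share is a description only. None of the 10 fell, where 0.242% of all tested genes did (edgeR; 0 had an unadjusted p under 0.05 in that direction, and DESeq2 and limma called 0). The other 6 did not pass, although all 10 log2 fold changes were above 0, and the median over the 10 was 0.75 against 0.01 over all tested genes. At an unadjusted p under 0.05, 7 of the 10 were higher, against 5.37% of all tested genes (5.38% were lower). DESeq2 called 5 as higher, adding Psph, where it called 1.88% of all genes (1.2% as lower), and limma called the same 4 as edgeR, where it called 1.02% (0.242% as lower). In 5 of the 10 genes, the 4 that rose and Psph, the lowest transgenic heart exceeded the highest non-transgenic heart, an order held by 4.58% of all tested genes. In the values below, non-transgenic hearts stand in the order A, B, D, E and transgenic hearts in the order A, B, C, E. The plot of CPM by heart shows all values.

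**Figure D1:**
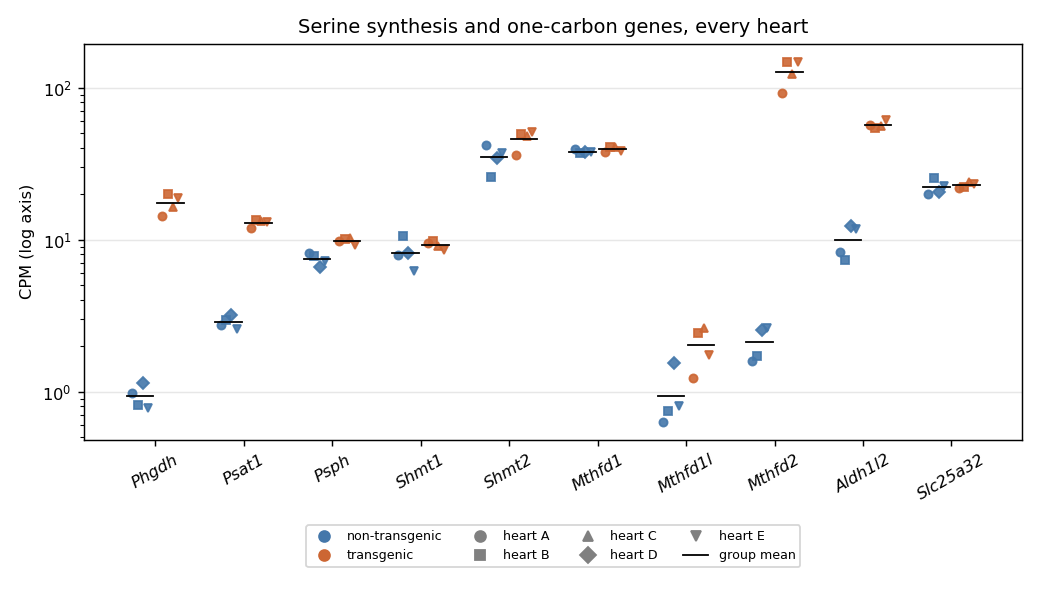
CPM (counts relative to the scaled library total, log axis) of the 10 genes in each of the 8 hearts, with non-transgenic hearts in blue, transgenic hearts in orange, a symbol for each heart letter and a bar at the group mean (n = 4). The groups are far apart for Phgdh, Psat1, Mthfd2 and Aldh1l2, narrowly apart for Psph, and overlap for the other 5 genes.

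Depth was similar in both groups, with 45802079 to 50830215 counts per non-transgenic library and 44584359 to 55769859 per transgenic library. The targeted gene Fastkd1 had 8845 to 11516 CPM in transgenic hearts and 26.3 to 33.8 CPM in all non-transgenic hearts but D. The library labelled non-transgenic D had 192 CPM of Fastkd1 and, although labelled male, 0 counts of 4 Y-linked genes together, which allows up to 3 counts, where the others had 10372 to 15914. Transgenic heart A stood apart by its atrial markers, whose 4 tested genes summed to 2988 CPM against 20.1 to 241 in the other transgenic hearts and 16.2 to 572 in non-transgenic hearts. Results are therefore given with all 8 hearts, and without non-transgenic D and transgenic A where this changed a call. Ventricular muscle markers, all 9 of which were tested, summed to 71453 to 81881 CPM in non-transgenic and 57449 to 62095 CPM in transgenic hearts, and adipocyte markers (6 of 6 tested) to 437 to 732 and 368 to 405 CPM. Both sums were lower in every transgenic heart, and their part in the results was not tested. Taken singly, 5 of the 9 ventricular genes but only 1 of the 6 adipocyte genes were lower in every transgenic heart, as were 2.8% of all tested genes. Fabp4 was the only adipocyte gene with an unadjusted edgeR p under 0.05. Over 10 marker lists with at least 1 tested gene, 0 of 56 genes passed the edgeR test, where 1.01% of all tested genes rose and 0.242% fell. At an unadjusted p under 0.05, 1 was higher and 12 lower, against 5.37% and 5.38% of all tested genes. The 12 were 7 ventricular, 1 adipocyte and 4 red blood cell genes, the last being all 4 tested of that list. DESeq2 called 1 higher and 6 lower (1.88% and 1.2% of all genes), and limma 1 higher and 0 lower (1.02% and 0.242%). In RNA from whole tissue, a change in the number of cells of a type and a change in RNA per cell cannot be told apart.

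Upstream sequence is shown for Phgdh and Psat1 of serine synthesis and Mthfd2 of the mitochondrial folate route, which rose together, and for Shmt2, which stands between these enzymes in the pathway and did not pass. Sequences and start sites are from RefSeq on GRCm38.p6, where 8 of the 10 genes matched an entry, with 9 start sites. Aldh1l2, which also rose, and Slc25a32 had no match, so the motif counts below do not cover them. Each run lies within the 250 bases before the start and holds the longest stretch free of annotated exons, and the capitals mark the letters CCAAT on either strand, which read ATTGG on the opposite one.
Phgdh, chr3:98339991-98340219, minus strand: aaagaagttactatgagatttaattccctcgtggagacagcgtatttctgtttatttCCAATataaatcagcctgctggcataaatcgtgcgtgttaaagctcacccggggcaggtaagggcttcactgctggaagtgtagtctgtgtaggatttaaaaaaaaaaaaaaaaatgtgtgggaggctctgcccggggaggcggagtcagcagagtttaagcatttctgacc
Psat1, chr19:15925060-15925309, minus strand: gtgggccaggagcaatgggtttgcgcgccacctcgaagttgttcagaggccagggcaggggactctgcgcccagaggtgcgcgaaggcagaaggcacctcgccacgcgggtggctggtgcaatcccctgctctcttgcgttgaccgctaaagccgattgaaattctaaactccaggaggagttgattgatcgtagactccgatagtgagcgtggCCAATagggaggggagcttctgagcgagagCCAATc
Mthfd2, chr6:83317607-83317854, minus strand: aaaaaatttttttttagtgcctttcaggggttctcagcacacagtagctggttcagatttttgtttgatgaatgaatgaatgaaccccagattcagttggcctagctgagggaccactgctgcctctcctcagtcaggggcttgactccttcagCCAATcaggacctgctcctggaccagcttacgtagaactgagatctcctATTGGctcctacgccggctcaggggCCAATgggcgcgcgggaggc
Shmt2, chr10:127522445-127522694, minus strand: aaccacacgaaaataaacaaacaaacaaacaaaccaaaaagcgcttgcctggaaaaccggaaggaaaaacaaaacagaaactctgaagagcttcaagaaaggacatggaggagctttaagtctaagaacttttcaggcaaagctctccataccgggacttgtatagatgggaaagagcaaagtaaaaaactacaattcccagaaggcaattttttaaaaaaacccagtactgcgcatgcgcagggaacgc
The motif was chosen for display after the sequences had been viewed. Of 32851 RefSeq promoters, 33.8% held CCAAT at least once in the 250 bases before the start (both strands), 10.1% at least 2 times and 2.79% at least 3 times. Mthfd2 held 3 matches, starting 96, 47 and 22 bases before the start site, and Phgdh held 2, at 193 and 23 bases, the second of which crosses the edge of the first exon in GENCODE and is not within the run shown. Psat1 held 2, at 36 and 6 bases, before the first of its start sites and 0 before the other. Among genes that did not pass, Psph held 2, Shmt1 and Mthfd1 held 1 each, and Shmt2 and Mthfd1l held 0. The letters TGATGNAA, a form of the composite element bound by ATF4 with C/EBP partners, were in 3.45% of promoters and in 0 of the 9 windows of these genes (both strands). CACGTG, the E-box bound by MYC among others, was in 6.02% of promoters and in 0 of the 9 windows. The Mthfd2 and Psat1 sequences shown lie inside longer GENCODE gene models, in sequence that is intronic there, and sequence beyond the 9 windows was not searched.

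The opening enzyme of serine synthesis had the second-largest rise. Phgdh (ENSMUSG00000053398; GRCm38 chromosome 3, 98313170 to 98339990, minus strand) had 0.974, 0.819, 1.14 and 0.780 CPM in the non-transgenic hearts. In the transgenic hearts it had 14.4, 20.0, 16.3 and 18.8 CPM. Every transgenic heart was far above every non-transgenic heart, and within groups heart D was the highest and transgenic A the lowest. Group means were 0.929 ± 0.164 and 17.4 ± 2.50 CPM (SD, n = 4 each). On the log2 scale this is a rise of 4.22 (SE 0.17, 95% interval 3.84 to 4.59, edgeR adjusted p = 5.55e-07), or 18.6-fold, which rests on 32 to 63 counts per non-transgenic library and 634 to 999 per transgenic library. The count of Phgdh is uncertain, because 47.8% of the 50-base stretches of its transcripts also occur in transcripts of 23 other genes, 20 of them pseudogenes. None of those 23 genes (0) was among the counted genes, and the authors' treatment of reads with several matches is not given in the sources used here.

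Psat1, the aminotransferase of the next step (ENSMUSG00000024640; chromosome 19, 15904678 to 15947337, minus strand), had 2.74, 2.97, 3.21 and 2.57 CPM in the non-transgenic hearts. The transgenic hearts had 11.8, 13.5, 13.2 and 13.1 CPM. The groups were well separated and varied little among themselves, with means of 2.87 ± 0.277 and 12.9 ± 0.737 CPM (SD, n = 4 each). The rise was 2.17 on the log2 scale (SE 0.11, 95% interval 1.92 to 2.41, edgeR adjusted p = 3.95e-06), or 4.49-fold.

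Psph, the phosphatase that ends the pathway (ENSMUSG00000029446; chromosome 5, 129765558 to 129787449, minus strand), had 8.23, 7.83, 6.61 and 7.23 CPM in the non-transgenic and 9.78, 10.2, 10.3 and 9.19 CPM in the transgenic hearts. The groups did not overlap, as in 7.38% of all tested genes in either direction, but the gap between the highest non-transgenic and the lowest transgenic heart was small. Its log2 fold change of 0.40 (SE 0.10, 95% interval 0.17 to 0.63) had an edgeR adjusted p of 0.133. DESeq2 gave an adjusted p of 0.0274, and over all 19 alternative settings the adjusted p ran from 0.0274 to 0.504. Exons of Cct6a on the opposite strand cover 10.4% of the exon length of Psph, and the strand setting of the counting is not given in the sources used here. Cct6a itself had a log2 fold change of 0.14 (adjusted p = 0.734).

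Along the 3 steps of serine synthesis the differences between groups were of unequal size. Per kilobase of exon, the level of Phgdh went from 0.552 ± 0.0679 times that of Psat1 without the transgene to 2.29 ± 0.231 times with it (SD, n = 4 each). Psat1 relative to Psph, also per kilobase, stood at 0.395 ± 0.0684 in non-transgenic hearts and 1.34 ± 0.0906 in transgenic hearts. Phgdh relative to Psph went from 0.219 ± 0.0552 to 3.08 ± 0.491, with 0.301 as the highest non-transgenic and 2.56 as the lowest transgenic value. The order of the 3 transcripts was thus turned around: Psph was the most abundant of them per kilobase in each non-transgenic heart and the least abundant in each transgenic heart. Ratios with Phgdh carry the uncertainty of its count. Its share of 50-base stretches found in other genes was 47.8%, against 0.739% for Psat1 and 8.82% for Psph.

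Neither of the serine hydroxymethyltransferases, which join serine synthesis to the folate pool, passed the test. Shmt2, the mitochondrial enzyme (ENSMUSG00000025403; chromosome 10, 127517123 to 127522444, minus strand), had 41.9, 25.8, 34.4 and 37.4 CPM in the non-transgenic hearts against 35.8, 49.2, 47.9 and 51.0 CPM in the transgenic hearts. Transgenic heart A lay within the non-transgenic range, and the other 3 transgenic hearts lay above it. Means were 34.9 ± 6.79 and 46.0 ± 6.88 CPM (SD, n = 4 each), with a log2 fold change of 0.40 (SE 0.16, 95% interval 0.04 to 0.75, edgeR adjusted p = 0.400). Shmt1, the cytosolic enzyme (ENSMUSG00000020534; chromosome 11, 60788104 to 60811718, minus strand), had 7.95, 10.5, 8.15 and 6.19 CPM against 9.49, 9.86, 9.15 and 8.54 CPM. The ranges overlapped, with non-transgenic heart B the highest of all 8. The log2 fold change was 0.18 (SE 0.15, 95% interval -0.16 to 0.51, edgeR adjusted p = 0.767). The ratio of Shmt2 to Shmt1 per kilobase was 5.62 ± 1.94 without and 6.23 ± 1.14 with the transgene (SD, n = 4 each), and these ranges overlap.

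Mthfd2, the mitochondrial dehydrogenase and cyclohydrolase that is abundant in embryos and tumours and scarce in most adult tissues, had the largest rise of the 10 genes. It is encoded by ENSMUSG00000005667 (chromosome 6, 83305691 to 83325908, minus strand). The non-transgenic hearts had 1.59, 1.72, 2.54 and 2.63 CPM, and the transgenic hearts had 92.6, 147, 122 and 148 CPM. Transgenic heart A was the lowest of its group, at 66.7% of the mean of the other 3 transgenic hearts, and still lay far above every non-transgenic heart. The log2 fold change was 5.90 (SE 0.23, 95% interval 5.38 to 6.41, edgeR adjusted p = 5.55e-07), or 59.6-fold, from 67 to 140 counts per non-transgenic and 4079 to 7336 per transgenic library. None (0%) of its 50-base stretches was shared with another gene.

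Mthfd2l encodes a second mitochondrial dehydrogenase of the same step, known as the adult form. Its means were 4.56 ± 0.748 and 3.78 ± 0.236 CPM without and with the transgene (SD, n = 4 each; log2 fold change -0.27, SE 0.14, edgeR adjusted p = 0.570). Per kilobase of exon, Mthfd2 was at 0.904 ± 0.284 times the level of Mthfd2l in non-transgenic hearts and at 64.4 ± 14.2 times in transgenic hearts. The ranges of Mthfd2l overlapped between the groups, at 3.84 to 5.35 and 3.54 to 4.05 CPM.

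Mthfd1l, the mitochondrial formate-releasing enzyme that acts after MTHFD2 (ENSMUSG00000040675; chromosome 10, 3973118 to 4167081, plus strand), was the least abundant of the 10 genes per kilobase of exon. It had 0.635, 0.743, 1.54 and 0.799 CPM in the non-transgenic hearts against 1.23, 2.44, 2.64 and 1.74 CPM in the transgenic hearts, from 28 to 156 counts per library. Heart D, the highest of its group, lay above transgenic heart A, the lowest of its own, and the other hearts were separated by group. The log2 fold change was 1.104 (SE 0.33, 95% interval 0.36 to 1.85, edgeR adjusted p = 0.223). Without hearts D and A it was 1.64 with an edgeR adjusted p of 0.00902. Those are the hearts whose values overlapped, so leaving both out separated the groups by construction. Mthfd1l did not pass without D alone (1.46, edgeR adjusted p = 0.05002) or without transgenic A alone (1.28, edgeR adjusted p = 0.113). Per kilobase, Mthfd2 was at 3.098 ± 0.858 times the level of Mthfd1l in non-transgenic hearts and at 84.8 ± 21.6 times in transgenic hearts.

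Mthfd1, whose product carries the cytosolic dehydrogenase, cyclohydrolase and synthetase activities (ENSMUSG00000021048; chromosome 12, 76255298 to 76319803, plus strand), had the smallest spread of the 10 among non-transgenic hearts. Its CPM values were 39.2, 37.3, 37.8 and 37.6 in the non-transgenic hearts against 37.6, 40.8, 40.8 and 38.2 in the transgenic hearts. These ranges overlap, and the coefficient of variation was 2.24% within non-transgenic and 4.37% within transgenic hearts. The log2 fold change was 0.05 (SE 0.07) with a 95% interval of -0.11 to 0.22 (edgeR adjusted p = 0.872). Relative to Mthfd1, per kilobase, Mthfd2 stood at 0.0711 ± 0.0189 without and 4.11 ± 0.799 with the transgene (SD, n = 4 each).

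Aldh1l2, the mitochondrial formyltetrahydrofolate dehydrogenase that yields NADPH (ENSMUSG00000020256; chromosome 10, 83487450 to 83534140, minus strand), had 8.25, 7.37, 12.2 and 11.7 CPM in the non-transgenic hearts. The transgenic hearts had 56.9, 53.9, 55.7 and 61.7 CPM. Non-transgenic hearts D and E were higher than A and B, and the transgenic hearts lay close together, heart A among them at 99.6% of the mean of the other 3. Means were 9.88 ± 2.42 and 57.1 ± 3.33 CPM (SD, n = 4 each), a log2 fold change of 2.53 (SE 0.17, 95% interval 2.16 to 2.89, edgeR adjusted p = 2.13e-05) or 5.76-fold. D10Wsu102e on the opposite strand covers 14.1% of its exon length and had a log2 fold change of 0.15 (adjusted p = 0.657). Its cytosolic counterpart Aldh1l1 had 3.45 ± 0.609 and 3.09 ± 1.83 CPM without and with the transgene (SD, n = 4 each; log2 fold change -0.16, SE 0.33, edgeR adjusted p = 0.915). The ratio of Aldh1l2 to Aldh1l1 per kilobase was 1.16 to 2.49 without the transgene, 5.87 in transgenic heart A and 15.6 to 16.0 in the other 3 transgenic hearts.

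Slc25a32, the mitochondrial folate carrier (ENSMUSG00000022299; chromosome 15, 39091231 to 39112716, minus strand), had 19.9, 25.6, 20.4 and 22.4 CPM in the non-transgenic hearts against 21.8, 22.2, 24.0 and 23.1 CPM in the transgenic hearts. All transgenic values lay within the non-transgenic range. The log2 fold change was 0.04 (SE 0.10, 95% interval -0.18 to 0.27, edgeR adjusted p = 0.929), and it was slightly negative without non-transgenic heart A (-0.0048) or D (-0.0026). The plot of differences sets the 10 genes side by side. Without hearts D and A, the 4 genes that rose had log2 fold changes of 6.12 (Mthfd2), 4.42 (Phgdh), 2.65 (Aldh1l2) and 2.27 (Psat1), each somewhat above its value over all 8 hearts.

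**Figure D2:**
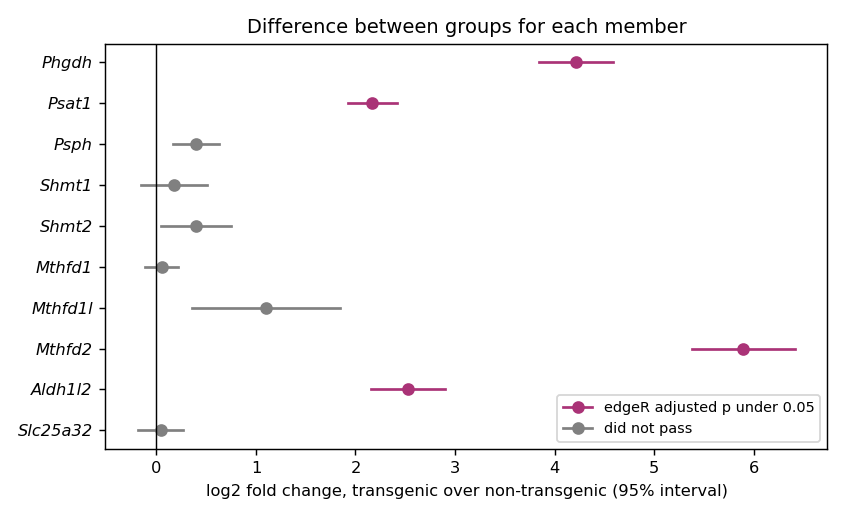
Log2 fold change of each of the 10 genes, transgenic over non-transgenic, with its 95% interval from the edgeR fit on all 8 hearts; coloured points passed an adjusted p of 0.05. Mthfd2 at 5.90, Phgdh at 4.22, Aldh1l2 at 2.53 and Psat1 at 2.17 stand apart from the other 6 genes, of which Mthfd1l at 1.104 has the widest interval.

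Levels of different genes were compared as CPM per kilobase of exon (mean ± SD over 4 hearts). In non-transgenic hearts the order was Shmt2 at 11.2 ± 2.19, Mthfd1 at 8.55 ± 0.191, Slc25a32 at 3.64 ± 0.425, Shmt1 at 2.11 ± 0.459, Psph at 1.73 ± 0.163 and Aldh1l2 at 1.32 ± 0.323. Below 1 came Psat1 at 0.675 ± 0.0650, Mthfd2 at 0.607 ± 0.155, Phgdh at 0.374 ± 0.0662 and Mthfd1l at 0.209 ± 0.0931. Of the 4 genes that rose, 3 were thus among the 4 lowest in this group, and Aldh1l2 stood just above them. The ranges of these neighbours overlapped: Shmt2 with Mthfd1, Shmt1 with Psph, Psph with Aldh1l2, Psat1 with Mthfd2, Mthfd2 with Phgdh, and Phgdh with Mthfd1l.

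In transgenic hearts Mthfd2 headed the order at 36.5 ± 7.43 CPM per kilobase. It was followed by Shmt2 at 14.8 ± 2.21, Mthfd1 at 8.86 ± 0.387, Aldh1l2 at 7.61 ± 0.444, Phgdh at 6.99 ± 1.007 and Slc25a32 at 3.74 ± 0.159. Psat1 at 3.04 ± 0.173, Shmt1 at 2.38 ± 0.144, Psph at 2.28 ± 0.114 and Mthfd1l at 0.453 ± 0.146 were the lowest. Mthfd2 went from the eighth to the first place, Phgdh from the ninth to the fifth, and Mthfd1l was last in both groups. The places of Phgdh carry the uncertainty of its count given above. Only Aldh1l2 with Phgdh and Shmt1 with Psph overlapped with their neighbour in this group. Dividing by the longest transcript in place of all exons raised the levels of all 10 genes, by unequal amounts. In transgenic hearts the mean of Psat1 then stood above that of Slc25a32, and that of Psph above that of Shmt1. The order in non-transgenic hearts was kept. Levels of Mthfd2 and Shmt2 by this length are given with the alternatives.

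**Figure D3:**
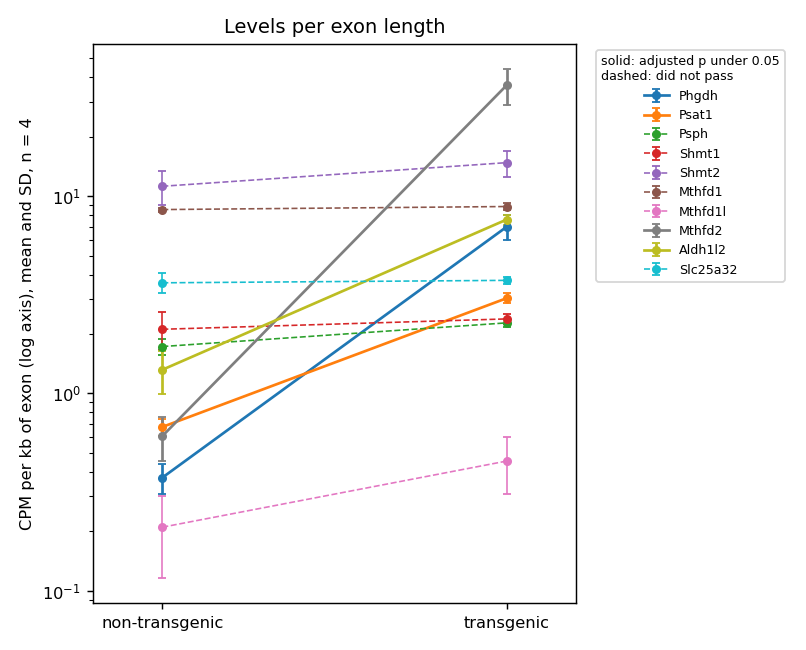
Mean CPM per kilobase of exon (log axis) of the 10 genes in non-transgenic and transgenic hearts; bars are the SD over 4 hearts, solid lines mark genes with an edgeR adjusted p under 0.05 and dashed lines the others. The line of Mthfd2 climbs from 0.607 past all others to 36.5, while those of Mthfd1, Slc25a32 and Shmt1 run nearly level.

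Within groups, heart D had the highest non-transgenic value for 3 of the 4 genes that rose and transgenic heart A the lowest transgenic value for 3 of 4. Among the 6 genes that did not pass, heart D was the highest for 1 and transgenic heart A the lowest for 4. Low values in transgenic heart A were thus not particular to the genes that rose. The mean log2 CPM over the 4 genes that rose was 1.31, 1.27, 1.73 and 1.52 in the non-transgenic hearts against 4.95, 5.26, 5.12 and 5.28 in the transgenic hearts. Relative to the mean of transgenic hearts B, C and E, heart A stood at 78.4% for Phgdh, 89.3% for Psat1, 66.7% for Mthfd2 and 99.6% for Aldh1l2. For comparison, it stood at 101% for Fastkd1 and 74.0% for Atf4. Atrial markers were highest in these same libraries, D and A, within their groups (572 and 2988 CPM); their part in this pattern was not tested.

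With the group means subtracted, Pearson's r of log2 CPM over the 8 libraries was 0.75 between Phgdh and Psat1 and 0.72 between Mthfd2 and Aldh1l2. Over all 6 pairs of genes that rose it ran from 0.01 to 0.75 with a median of 0.39. The other 39 pairs among the 10 genes ran from -0.85 to 0.78 with a median of 0.08. These are descriptions over 8 libraries that share scaling and 2 libraries that stand apart. By the same measure, the genes outside the pathway most like the mean of the 4 that rose were Surf6 (r = 0.98), Atad2b (0.97), Lrrc8c (0.96), Podxl (0.96), Cables2 (0.96) and Dock4 (0.96). These 6 are the top of a ranking of many genes over only 8 libraries, where r values this high can arise by chance. None of the 6 passed the test between groups, with edgeR adjusted p from 0.699 for Dock4 to 0.981 for Cables2. Of all tested genes, 1.01% rose and 0.242% fell.

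Most tested genes around the pathway did not pass, as was so of all tested genes. Over 9 lists of neighbouring genes, 8 of 86 tested genes rose (9.30%) and 0 fell (edgeR), against 1.01% and 0.242% of all tested genes. At an unadjusted p under 0.05, 16 were higher and 6 lower, against 5.37% and 5.38%. DESeq2 called 10 higher and 2 lower (1.88% and 1.2% of all genes), limma 8 and 0 (1.02% and 0.242%). The lists were written with earlier results of these data known, so these shares are descriptions only. The median log2 fold change of the 86 genes was 0.01, equal to that of all tested genes to this precision. The 8 were Atf4, Atf5, Ddit3, Cebpg and Myc among transcription factors, Slc6a9 and Slc38a1 among transporters, and Cth in transsulfuration.

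Of 6 tested transporters that carry serine or glycine across the plasma membrane, 2 rose, and the median log2 fold change was 0.71. Slc6a9, the glycine transporter GlyT1, had 0.884, 0.205, 0.724 and 0.933 CPM in the non-transgenic hearts against 3.77, 5.82, 5.33 and 6.80 CPM in the transgenic hearts (log2 fold change 2.96, SE 0.36, edgeR adjusted p = 0.00174). Slc38a1, a transporter of glutamine and other small neutral amino acids, had 2.86, 4.86, 11.1 and 4.95 CPM against 27.8, 31.2, 23.8 and 19.6 CPM. The groups of both genes were apart, with heart D the highest non-transgenic heart for Slc38a1. The rise of Slc38a1 was 2.098 on the log2 scale (SE 0.35, edgeR adjusted p = 0.0151). It was no longer called when heart B or E of the non-transgenic group was left out (adjusted p = 0.0572 and 0.0719), nor when transgenic heart B was (0.0685). The call of Slc38a1 was also lost with scaling by library totals only (edgeR adjusted p = 0.0502) and at a threshold of 0.01. Slc1a4, the neutral amino acid transporter ASCT1, named here after its values were seen, had 10.3 ± 4.53 and 20.7 ± 3.88 CPM (SD, n = 4 each; log2 fold change 1.01, SE 0.27, edgeR adjusted p = 0.163), with non-transgenic heart D at 16.6 CPM above transgenic heart A at 15.2 CPM. Without those hearts Slc1a4 passed, as it did without heart D alone, with DESeq2 and with the block on title letters.

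The transcription factors known to act on these enzymes' genes had 5 of 8 that rose, with a median log2 fold change of 1.13. This list was written with the rise of ATF4 pathway genes in these hearts already known and is no independent evidence of it. Atf4 had 64.5, 61.0, 66.2 and 71.9 CPM in non-transgenic and 128, 170, 165 and 183 CPM in transgenic hearts, the groups well apart and transgenic A again the lowest of its group (log2 fold change 1.29, SE 0.12, edgeR adjusted p = 0.000265). Atf5, a related factor of mitochondrial stress, had 32.7 ± 7.38 and 226 ± 42.0 CPM (SD, n = 4 each; log2 fold change 2.79, SE 0.20, adjusted p = 3.73e-05). Myc, a growth regulator, had 1.56 ± 0.329 and 6.99 ± 1.40 CPM (2.16, SE 0.20, adjusted p = 0.000333). Cebpg, a partner of ATF4, and Ddit3, which encodes CHOP, rose by 1.095 and 0.92 on the log2 scale (adjusted p = 0.000785 and 0.00233). Atf3, Cebpb and Nfe2l2 did not pass; Atf3 had 62.2 CPM in transgenic heart A against 10.6 to 18.1 in the other transgenic hearts and 8.60 to 17.4 in the non-transgenic hearts.

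Among 8 tested genes of the methionine cycle and transsulfuration, 1 rose, with a median of 0.12. It was Cth, which cleaves cystathionine to cysteine, with 1.88, 1.43, 1.58 and 1.12 CPM in non-transgenic and 3.00, 3.28, 2.87 and 2.63 CPM in transgenic hearts. The groups did not overlap. On the log2 scale Cth rose by 0.97 (SE 0.18, edgeR adjusted p = 0.0338), and the call was lost in 10 of 18 alternatives, among them 7 of the 8 that left out a single heart (adjusted p from 0.0571 to 0.171 in those 7). Without hearts D and A its adjusted p was 0.0679.

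No gene passed the edgeR test in the 6 other lists, 64 genes in all, where 1.01% of all tested genes rose and 0.242% fell. Such a count is near those shares and does not set these lists apart from other genes. Of 14 other folate enzymes and folate transporters (median log2 fold change -0.09), the smallest p was that of Slc19a1, the reduced folate carrier, at 3.04 ± 0.655 and 4.14 ± 0.260 CPM (log2 fold change 0.44, SE 0.16, edgeR adjusted p = 0.353). Of 10 genes of glycine cleavage and mitochondrial glycine and formate supply (median 0.01), it was that of Gcat, which splits a threonine product to glycine, at 13.7, 13.1, 11.5 and 10.5 CPM against 10.9, 8.66, 8.62 and 7.83 CPM (-0.44, SE 0.13, adjusted p = 0.218). Of 11 genes that use serine (median -0.03), it was that of Srr, the serine racemase, at 19.9 ± 2.22 and 27.9 ± 2.29 CPM. The Srr groups did not overlap, and its log2 fold change of 0.49 (SE 0.11) had an edgeR adjusted p of 0.0634; it was called as higher with DESeq2, with library totals, at a threshold of 0.10, and when non-transgenic heart B or transgenic heart A was left out.

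The purine and thymidylate genes, which consume one-carbon units, had a median of 0.04 over 15 tested genes. Their smallest p was that of Adssl1, the muscle adenylosuccinate synthase, at 188 ± 28.7 and 151 ± 3.81 CPM (log2 fold change -0.31, SE 0.11, edgeR adjusted p = 0.322). Thymidylate synthase, Tyms, named here for its place in the pathway, had 2.07 ± 0.590 and 2.03 ± 0.242 CPM (-0.03, SE 0.21, adjusted p = 0.979). Glycolytic genes around 3-phosphoglycerate, the starting point of serine synthesis, had a median of -0.18 over 9 genes, and Eno3, the muscle enolase that acts further down, had -0.52 (SE 0.13, adjusted p = 0.118). The 5 genes of mitochondrial NADPH supply had a median of -0.28, with Idh2, which makes NADPH from isocitrate, at -0.41 (SE 0.11, adjusted p = 0.147). Eno3 was lower in every transgenic heart than in every non-transgenic heart, as 2.8% of all tested genes were, and so was Idh2; DESeq2 called both as lower.

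**Figure D4:**
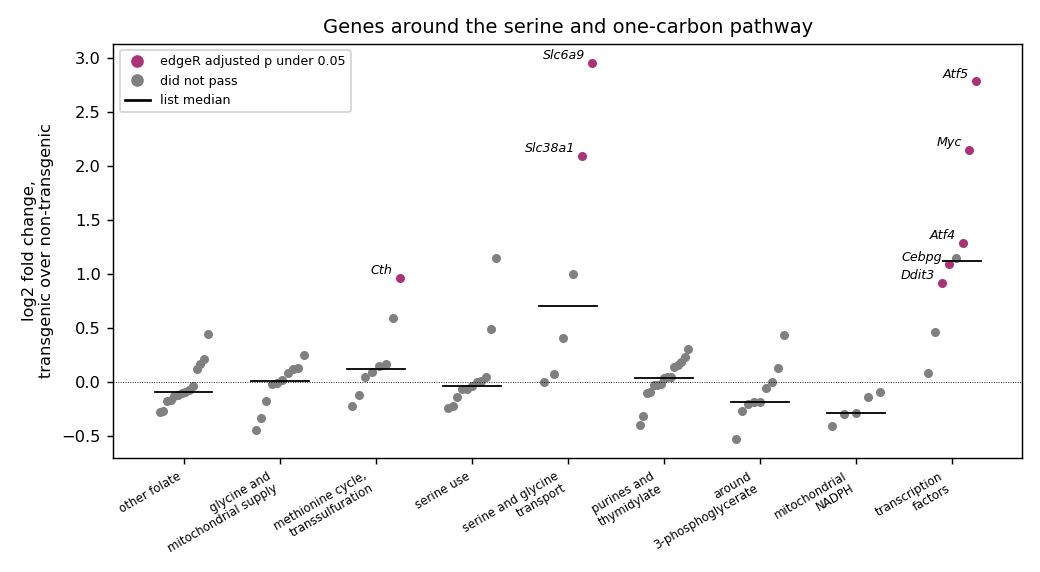
Log2 fold change, transgenic over non-transgenic, of each tested gene in 9 lists around the pathway, ordered by value within a list; bars are list medians and coloured, named points passed an edgeR adjusted p of 0.05. The 8 genes that passed sit in 3 lists, and the medians of the folate, glycine, serine-use and purine lists lie between -0.09 and 0.04.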

How the data were processed

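RNA of 8 hearts was sequenced, 4 per group. The authors deposited 1 file of unnormalized whole-number counts per Ensembl gene and library. TopHat2 and cutadapt 1.15 are named in the submitters' processing notes, with GRCm38 (mm10); read counter, annotation release and strand setting are not given in the sources used here. Every deposited gene had at least about 1 CPM in 2 libraries (lowest second-highest value 1.003), so rarer genes were not analysed here. Among non-transgenic hearts, Phgdh (0.780 to 1.14 CPM) and Mthfd1l (0.635 to 1.54) exceeded this value only in heart D. Slc6a9 (0.205 to 0.933) exceeded it in none of them. These genes met that level through the transgenic hearts, where they were higher, so counts of rises that include them are descriptions only. Groups come from the sample titles and genotypes, and the title letters were read as separate hearts; if they are not separate animals, p-values measure only the spread between these libraries, no pair of which was a repeat (chi-square of at least 19.7 per degree of freedom).

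Counts were fitted in R 4.3.3 with edgeR 4.0.16 (filterByExpr, TMM scaling, quasi-likelihood F test, two-sided, Benjamini-Hochberg over all 13226 tested genes, threshold 0.05) and tested on simulated data. SE is the absolute log2 fold change over the square root of F. CPM uses TMM library sizes, with a prior count of 2 for logarithms. DESeq2 1.42.0 and limma 3.58.1 were alternatives, beside other scalings, filters, thresholds, left-out hearts and a block. Symbols, exons and coordinates are from GENCODE M21; 12 identifiers had no entry. Pathway genes named are those that passed and, where none passed, the gene with the smallest p; genes most alike are the 6 with the highest r and an average log2 CPM of at least 2. Further genes named from the lists or as counterparts of an enzyme (Mthfd2l, Aldh1l1, Atf3, Cebpb, Nfe2l2, Tyms, Slc1a4, Nadk2 and the overlapping genes) fall outside this rule. The genes and lists were chosen with earlier results of these data known.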

Additional observations from a re-analysis of the deposited data

Results flagged for a closer look

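Over 38 groups of 4 hearts, 2 held a heart far from the others, and chance marks about 1 in 20 such groups. For Fastkd1 in non-transgenic hearts, heart D at 192 CPM lay apart from 26.3 to 33.8 CPM in the others, a gap of 0.874 of the group's range on the log2 scale. For Atf5 in non-transgenic hearts, heart B at 21.8 CPM lay below the others, which reached up to 38.1 CPM, a gap of 0.849 of the range. All these values lay below those of the transgenic hearts, and none of the 10 enzyme and carrier genes was marked in either group.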

How the results depend on the processing

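Mthfd2, Phgdh, Aldh1l2 and Psat1 rose under all 19 alternatives, with log2 fold changes of 5.78 to 6.12, 4.12 to 4.42, 2.41 to 2.68 and 2.101 to 2.27. The count of these 10 genes that rose was 4 throughout, except 5 with DESeq2 (Psph) and 5 without non-transgenic D and transgenic A (Mthfd1l). Slc25a32 changed sign without non-transgenic heart A (-0.0048), without D (-0.0026) and with the replicate block (-0.0132); over the single hearts left out it ran from -0.0048 to 0.12. Over all genes 133 rose, 249 with DESeq2 and 103 to 168 when single hearts were left out. The 32 that fell became 9 at a threshold of 0.01, 69 at 0.10, 159 with DESeq2, 106 without D and A, and 9 to 72 when single hearts were left out (non-transgenic A 10, B 50, D 72; transgenic B 9, C 14). Of the pathway lists, 0 fell, but 1 did with library totals (Eno3), 2 with DESeq2 (Eno3, Idh2), 1 without D and A (Nadk2) and 0 to 1 when single hearts were left out (Idh2, without D). The replicate block on title letters gave 103 higher and 21 lower genes, the same 4 enzymes and 8 pathway genes, with Cth lost (adjusted p = 0.123) and Slc1a4 gained. With group means subtracted, hearts of the same letter correlated at 0.297 (A), -0.085 (B) and 0.360 (E). Hearts of unlike letters were not compared, so these values cannot tell whether a shared letter pairs animals. A filter of 5 CPM in 4 libraries removed Mthfd1l, Cth and Slc6a9. Dividing by the longest transcript gave Mthfd2 61.0 and Shmt2 20.1 CPM per kilobase in transgenic hearts. The cause of these shifts was not tested. Counts under 100 per library limit Phgdh and Mthfd1l in all non-transgenic hearts and Mthfd2 in hearts A (70) and B (67).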
